A study of Mus musculus with 10 samples.

Results

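The secreted Wnt antagonists described here are 10 genes, Dkk1, Dkk2, Dkk3, Sost, Wif1, Sfrp1, Sfrp2, Sfrp4, Sfrp5 and Frzb, out of 18128 genes measured in mouse synovium. Each gene was read through the probe sets that the platform annotation gives to it alone. All 10 genes had at least 1 such probe set, 19 in all, and the probe set with the highest mean over 10 arrays stood for its gene. The study asked how maslinic acid, a plant triterpenoid, alters gene expression in collagen antibody-induced arthritis, in which injected antibodies against type II collagen and then lipopolysaccharide (LPS) inflame the joints.

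All mice were male DBA/1J, bought at 5 weeks and labelled as 8 weeks of age, on a purified diet whose fat came from corn. Every mouse received 1 mg of anti-collagen antibody on day 8, followed on day 11 by 25 µg of LPS, and was killed on day 12. The maslinic acid group (n = 5) took 200 mg/kg maslinic acid in corn oil by mouth each day, and the vehicle group (n = 5) took corn oil. The 5 mice of each group had been picked from larger groups, on a basis that the labels do not give, and arthritis was induced in both groups, so no comparison with a healthy joint was made. Each array held total RNA from the synovium of 1 left hind leg, and in such bulk tissue fewer cells of a type and less RNA per cell cannot be told apart.

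Wnt proteins are secreted signals that bind Frizzled receptors together with the co-receptors Lrp5 and Lrp6, and thereby stabilise beta-catenin in the receiving cell. Antagonists act outside the cell in different ways. Dickkopf proteins and sclerostin, the product of Sost, occupy the co-receptors, whereas Wif1 and the secreted Frizzled-related proteins, which include Frzb, bind the Wnt ligands themselves. In joints and bone this balance is known for its part in bone formation, and Dkk1 and sclerostin are established brakes on osteoblasts.

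The deposited values behave as a compressed scale whose unit the sources used here do not state. The median over 39993 probe sets was 6.74 on every array, and 93.5% of probe sets spanned less than 0.001 between the lowest and the highest array. Differences are therefore given as Hedges' g, the mean of the maslinic acid arrays minus that of the vehicle arrays divided by the pooled within-group SD, and not as fold changes. The lubricin gene Prg4, the defining product of the synovial lining, had values from 11.538 to 11.553 in vehicle mice and from 11.538 to 11.554 in maslinic acid mice. Bone, cartilage and tendon markers were also on the arrays at values well above that median, Dmp1 at a mean of 12.05, Col2a1 at 9.63 and Tnmd at 9.39. Vehicle replicates 3 and 5 had the lowest array weights in limma, 0.458 and 0.339, against 0.857 to 2.01 for the other arrays, and the leading results are also given without these 2 arrays.

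The upstream sequences of Wif1, Sost and Dkk2 are shown because these genes varied together between mice, and that of Frzb because it had the largest positive difference among the antagonists. Each is the 250 bases before the annotated gene start, 5′ to 3′ on the gene's strand, from RefSeq on build GRCm38.p6: Wif1 at chr10:121033754-121034003 (plus strand), Sost at chr11:101967016-101967265 (minus strand), Dkk2 at chr3:132085042-132085291 (plus strand) and Frzb at chr2:80447397-80447646 (minus strand). Capitals mark matches on either strand to the core letters of a TCF/LEF site (CTTTGA), of a RUNX site (TGTGGT) or of a TATA box (TATAAA); the motifs do not overlap each other in these windows.
Wif1: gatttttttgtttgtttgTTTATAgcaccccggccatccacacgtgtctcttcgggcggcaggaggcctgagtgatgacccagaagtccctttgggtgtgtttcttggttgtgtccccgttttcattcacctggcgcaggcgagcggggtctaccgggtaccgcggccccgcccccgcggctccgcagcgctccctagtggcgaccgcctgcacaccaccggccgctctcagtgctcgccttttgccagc
Sost: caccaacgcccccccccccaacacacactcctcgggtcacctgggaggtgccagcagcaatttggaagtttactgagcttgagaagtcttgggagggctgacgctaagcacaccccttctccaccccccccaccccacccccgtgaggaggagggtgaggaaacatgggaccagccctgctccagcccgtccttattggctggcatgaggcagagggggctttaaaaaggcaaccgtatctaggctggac
Dkk2: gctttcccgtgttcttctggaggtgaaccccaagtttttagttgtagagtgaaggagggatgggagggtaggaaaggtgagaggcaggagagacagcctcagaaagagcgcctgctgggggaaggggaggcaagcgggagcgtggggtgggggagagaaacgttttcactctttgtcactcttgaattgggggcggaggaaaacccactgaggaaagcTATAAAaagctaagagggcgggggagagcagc
Frzb: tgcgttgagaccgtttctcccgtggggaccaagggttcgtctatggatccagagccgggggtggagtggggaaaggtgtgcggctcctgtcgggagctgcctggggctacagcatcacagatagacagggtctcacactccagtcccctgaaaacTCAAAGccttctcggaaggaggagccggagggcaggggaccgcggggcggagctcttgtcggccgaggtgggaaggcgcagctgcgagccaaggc
The Dkk2 window held a TATA box match at position -32 from the start, and the Wif1 window held one on the opposite strand at -232. The Frzb window held a TCF/LEF match on the opposite strand at -95, and the Sost window held none of the 3 motifs. Among 32851 promoters of the same length, 13.8% held the TCF/LEF letters, 14.0% the RUNX letters and 12.4% the TATA letters, so matches of this kind are common. A search of 7 of the 10 antagonists was possible. Dkk1, which encodes a high-affinity Lrp6 ligand and is itself a known target of beta-catenin signalling, held TCF/LEF matches at -117 and, on the opposite strand, at -174. It also held a TATA match at -54 and, on the opposite strand, a RUNX match at -207. Sfrp5 held a RUNX match at -192, and Sfrp2 held none of the motifs.

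No antagonist passed the test between maslinic acid and vehicle. In limma, fitted on all 39993 probe sets with Benjamini-Hochberg adjustment, 0 of 10 antagonists had an adjusted p below 0.05, and the background was 0.0% of all probe sets. At an unadjusted p below 0.05, where the background was 9.04% of probe sets (3617), Frzb was higher and Sfrp4 lower. Among all genes, 4.29% were higher and 4.54% lower at that level, and the antagonists' 1 of 10 in each direction stands against these shares. The antagonists' mean was higher with maslinic acid in 9 of 10 genes, against 47.9% of all genes, with a median g of 0.48 against 0.00 for all genes. These counts moved with scaling, and so did those of all genes. After quantile normalization 5 of 10 antagonists were higher, against 5312 of 18128 genes, with a median g of -0.05 against -0.28. After centring each array on its median 7 of 10 were higher, against 2698 of 18128 genes, with a median g of 0.20 against -0.39. Without vehicle replicates 3 and 5, 8 of 10 were higher, against 8470 of 18128 genes. In that setting g was 1.05 for Frzb, -1.22 for Sfrp4 and -0.16 for Sfrp1. The vehicle and maslinic acid arrays overlapped for all 10 antagonists, whereas 1.36% of all probe sets did not overlap.

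**Figure D1:**
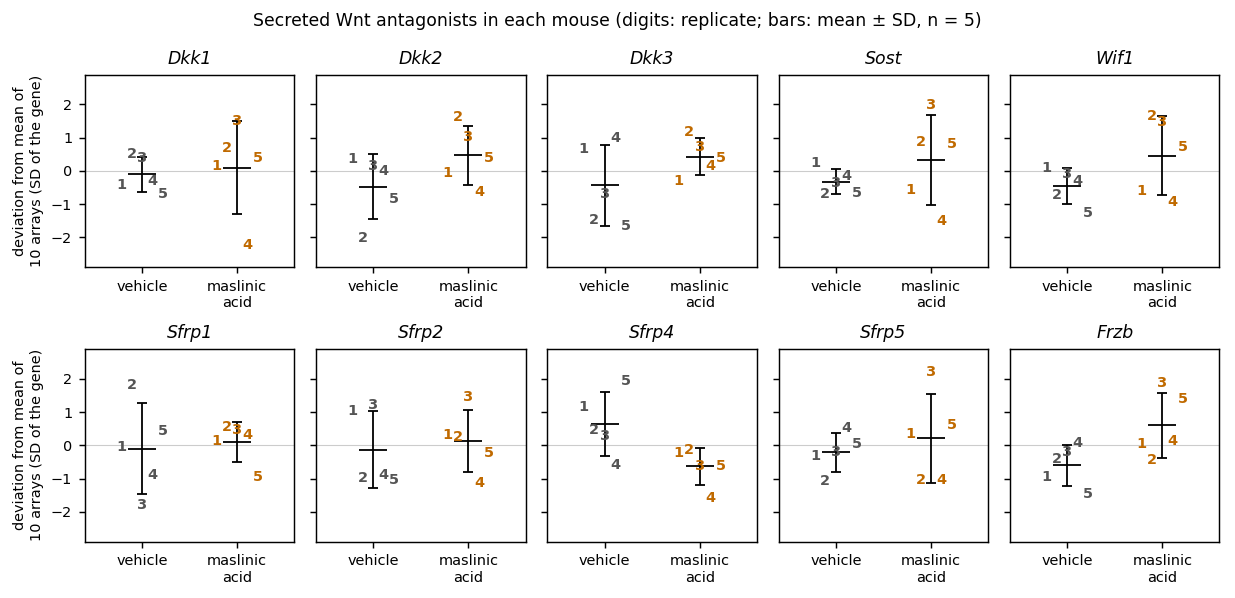
Deposited values of the 10 antagonists as deviations from each gene's mean over 10 arrays, in SDs of that gene (vertical axis), for vehicle and maslinic acid mice. Digits are replicate numbers, and bars are the group mean ± SD (n = 5). Maslinic acid replicate 3 is the highest array for 5 genes and maslinic acid replicate 4 the lowest for 4.

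Frzb, also called Sfrp3, is a Wnt-binding protein of developing and articular cartilage whose loss in mice worsens cartilage damage in arthritis models. Its values were 7.049, 7.056, 7.059, 7.062 and 7.043 in vehicle replicates 1 to 5, and 7.062, 7.055, 7.084, 7.062 and 7.078 in maslinic acid replicates 1 to 5. Maslinic acid replicates 3 and 5 stood above all others and vehicle replicate 5 below, while the remaining arrays of both groups intermingled. The group means were 7.0536 ± 0.0077 and 7.0684 ± 0.0123 (SD, n = 5). The difference was g = 1.31 (95% interval -0.01 to 2.56), with an adjusted p of 0.548 in limma and a two-sided exact permutation p of 0.0635. The other probe set for Frzb varied almost identically (r = 0.99 over 10 arrays, g = 1.07). Frzb also had one of the widest spreads in the table, since 99.7% of probe sets had a smaller SD.

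Sfrp4 encodes a Wnt-binding protein that is needed for normal cortical bone in humans and mice. It was the only antagonist with a lower mean under maslinic acid. Its values were 7.81385, 7.81362, 7.81356, 7.81327 and 7.81412 in vehicle replicates 1 to 5, and 7.81339, 7.81342, 7.81326, 7.81294 and 7.81326 in maslinic acid replicates 1 to 5. All 5 maslinic acid arrays lay below the vehicle median and 3 lay below the lowest vehicle array, vehicle replicate 4, which overlapped them. The group means were 7.81368 ± 0.00032 and 7.81325 ± 0.00019 (SD, n = 5). The difference was g = -1.47 (95% interval -2.76 to -0.11), with an adjusted p of 0.508 in limma and a two-sided exact permutation p of 0.0238, where the smallest p that 5 against 5 arrays allow is 0.00794. After quantile normalization g was -0.72. With the replicate number as a block it was -1.86, there divided by the SD left after the block and so not on the same scale.

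Wif1, which binds Wnts through its WIF domain and is a known product of cartilage and bone-forming cells, had values of 9.46913, 9.46856, 9.46900, 9.46886 and 9.46820 in vehicle replicates 1 to 5. In maslinic acid replicates 1 to 5 it had 9.46864, 9.47022, 9.47008, 9.46841 and 9.46957. Replicates 2, 3 and 5 of the maslinic acid group stood above every vehicle array, and replicates 1 and 4 lay among the lower vehicle arrays. Its g was 0.90 (95% interval -0.32 to 2.08), with an adjusted p of 0.640 in limma, and turned to -0.24 after quantile normalization. It was 1.43 without maslinic acid replicate 4 and 0.67 without vehicle replicates 3 and 5.

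Sost, whose protein sclerostin is made above all by osteocytes and binds Lrp5 and Lrp6, showed the same split. Its values were 7.86364, 7.86293, 7.86317, 7.86335 and 7.86295 in vehicle replicates 1 to 5, and 7.86303, 7.86412, 7.86497, 7.86230 and 7.86408 in maslinic acid replicates 1 to 5. Maslinic acid replicates 2, 3 and 5 were again above all vehicle arrays, and maslinic acid replicate 4 was the lowest of all. Its g was 0.58 (95% interval -0.59 to 1.72), with an adjusted p of 0.759 in limma. Its g was 1.32 without maslinic acid replicate 4, 0.25 without maslinic acid replicate 3 and 0.39 without vehicle replicates 3 and 5. The less variable probe set of Sost (SD 5.54e-06) had a g of -0.03 and r = 0.55 with the one used, so the pattern of Sost rests on 1 probe set.

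Dkk2, a Dickkopf protein that can block or, in some settings, activate Lrp6, had values of 6.5098, 6.5057, 6.5094, 6.5092 and 6.5077 in vehicle replicates 1 to 5. In maslinic acid replicates 1 to 5 it had 6.5091, 6.5120, 6.5110, 6.5081 and 6.5099. The same 3 maslinic acid mice, replicates 2, 3 and 5, exceeded the vehicle arrays, although replicate 5 did so narrowly, and vehicle replicate 2 was the lowest. Its g was 0.92 (95% interval -0.31 to 2.09), with an adjusted p of 0.637 in limma. The only probe set of Dkk2 had a mean of 6.509, below the array median of 6.74, although 98.3% of probe sets had a smaller SD.

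The other Dickkopf genes differed less or less evenly. Dkk1 values ranged from 7.95838 to 7.95884 in vehicle mice and from 7.95781 to 7.95921 in maslinic acid mice, and the vehicle range lay inside the maslinic acid range. Its g was 0.18 (95% interval -0.95 to 1.29), which became -0.14 without maslinic acid replicate 3 and 1.25 without maslinic acid replicate 4. Dkk3, a divergent relative that is not a classical Lrp6 blocker, ranged from 6.81397 to 6.81413 in vehicle mice and from 6.81405 to 6.81415 in maslinic acid mice. All 5 maslinic acid arrays were above the vehicle median of Dkk3, with g = 0.82 (95% interval -0.39 to 1.98) and an adjusted p of 0.664 in limma. Its other probe set had g = 0.87. The g of Dkk3 was 0.35 without vehicle replicates 3 and 5 and 0.19 after centring, and it ranged from 0.56 without vehicle replicate 5 to 1.33 without vehicle replicate 4.

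The remaining Frizzled-related genes, Sfrp1, Sfrp2 and Sfrp5, share a Frizzled-type cysteine-rich domain. Sfrp1, which restrains Wnt signalling in bone, ranged from 6.92809 to 6.92818 in vehicle mice and from 6.92811 to 6.92815 in maslinic acid mice, the narrower range lying inside the wider. Its g was 0.18 (95% interval -0.95 to 1.30), and its 4 other probe sets had g between 0.04 and 0.63. Sfrp2, a product of connective tissue fibroblasts, ranged from 7.1483 to 7.1550 in vehicle mice and from 7.1480 to 7.1557 in maslinic acid mice, with g = 0.23 (95% interval -0.90 to 1.35). Vehicle replicates 1 and 3 were high for Sfrp2 and the other 3 vehicle arrays were low, so the spread within the vehicle group was wide. Sfrp5, best known from adipose tissue, ranged from 6.773458 to 6.773494 in vehicle mice and from 6.773459 to 6.773532 in maslinic acid mice, with g = 0.37 (95% interval -0.77 to 1.49), and its other probe set, which took only 6 different values over 10 arrays, had g = -0.25. After quantile normalization g turned to -0.50 for Dkk1, -1.13 for Sfrp1 and -0.28 for Sfrp5, and without maslinic acid replicate 3 that of Sfrp2 turned to -0.060. All 10 intervals are wide, and for no antagonist do they show that the groups were alike.

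**Figure D2:**
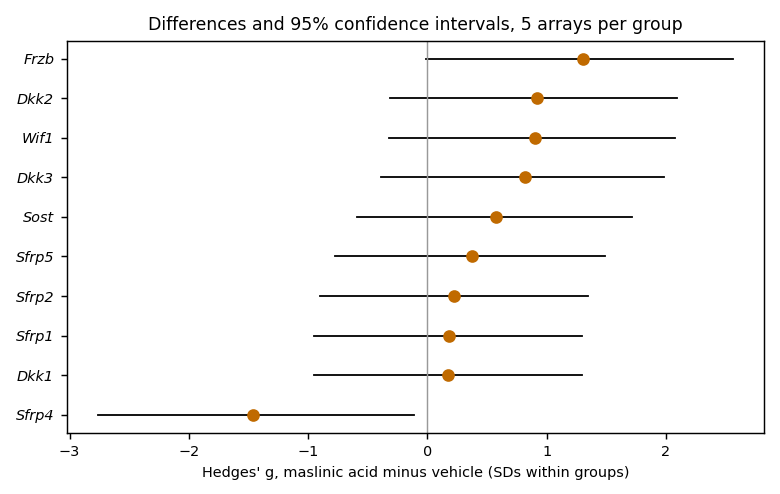
Hedges' g (horizontal axis, in SDs within groups, maslinic acid minus vehicle) with its 95% confidence interval for each antagonist, 5 arrays per group. The interval of Sfrp4 (-2.76 to -0.11) lies below 0, and the intervals of the other 9 genes, Frzb included (-0.01 to 2.56), reach across 0.

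The antagonists were then compared with each other over the 10 mice. Of 45 pairs, 32 correlated positively and 13 negatively, with a median Pearson r of 0.37. Over the 18088 genes that varied, the median r of each antagonist lay between -0.02 (Dkk2) and 0.02 (Sfrp2). How often pairs drawn from all genes reach an unadjusted p below 0.05 is not given here. An unadjusted permutation p below 0.05 was found for 12 pairs, and 2 pairs passed after Benjamini-Hochberg adjustment over the 45. Both included Wif1, 1 with Sost and 1 with Dkk2.

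Wif1 and Sost correlated with r = 0.91 (permutation p = 0.00032, adjusted p = 0.0144) and rho = 0.94 (permutation p = 0.00017, adjusted p = 0.00255). Without the arrays farthest from the median of Wif1, maslinic acid replicates 2 and 3, r was 0.87 (exact permutation p = 0.00613). Taken as deviations from the group means r was 0.90, with an adjusted p of 0.0969, and over the alternatives run the adjusted p ranged from 0.00255 to 0.499. Among all genes, 0.105% had a higher r with Wif1 than Sost had, and 0.0885% had a higher r with Sost than Wif1 had. After quantile normalization r was 0.55 and the pair did not pass.

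Dkk2 and Wif1 correlated with r = 0.85 (permutation p = 0.00128, adjusted p = 0.0288) and rho = 0.96 (permutation p = 6e-05, adjusted p = 0.00255). Vehicle replicate 2 was the lowest array for Dkk2 and the third lowest for Wif1, and without it and maslinic acid replicate 2 r was 0.96 (exact permutation p = 0.000149). Deviations from the group means gave r = 0.80 with an adjusted p of 0.0969. Quantile normalization gave r = 0.41, and over the alternatives run the adjusted p ranged from 0.000124 to 0.608. Without vehicle replicates 3 and 5 r was 0.84 (adjusted p = 0.0765) for Dkk2 and Wif1 and 0.92 (adjusted p = 0.0179) for Wif1 and Sost. The third pair of these genes, Dkk2 and Sost, had r = 0.74 (permutation p = 0.0172, adjusted p = 0.136) and rho = 0.94 (permutation p = 0.00014, adjusted p = 0.00255). In all 3 genes maslinic acid replicates 2, 3 and 5 were the 3 highest arrays.

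**Figure D3:**
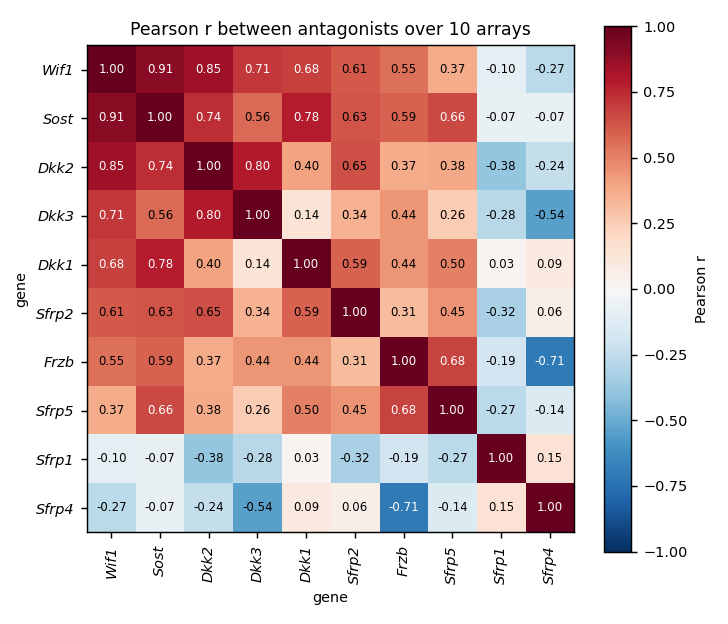
Pearson r between each pair of the 10 antagonists over 10 arrays (colour and printed value). Wif1 with Sost (0.91) and with Dkk2 (0.85) are the highest values, and Sfrp4 against Frzb (-0.71) is the lowest.

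Frzb and Sfrp4, the antagonists with the largest differences in each direction, were opposed over the mice, a pair singled out after its values were seen. Their r was -0.71 (permutation p = 0.0220, adjusted p = 0.136) and their rho -0.92 (permutation p = 0.00048, adjusted p = 0.0054). Vehicle replicate 5 had the lowest Frzb and the highest Sfrp4. Within groups r was -0.50 (exact permutation p = 0.122), and without vehicle replicates 3 and 5 it was -0.56 (exact permutation p = 0.147), and it missed the threshold in both. Without the arrays farthest from the median of Sfrp4, vehicle replicate 5 and maslinic acid replicate 4, r was -0.77 (exact permutation p = 0.0263).

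No other pair passed on the deposited values by Pearson's r. Dkk2 and Dkk3 had r = 0.80 (permutation p = 0.00428, adjusted p = 0.0642), and rho = 0.78 (permutation p = 0.0105). Dkk1 and Sost had r = 0.78 (permutation p = 0.00898, adjusted p = 0.101) and rho = 0.64 (permutation p = 0.0537), and this r fell to 0.35 without maslinic acid replicates 3 and 4. Dkk2 and Dkk3 did pass with each gene averaged over its probe sets (r = 0.84, adjusted p = 0.0192) and without vehicle replicate 4 (r = 0.85, adjusted p = 0.0427), while their r was 0.64 without vehicle replicate 2 and maslinic acid replicate 2. Sfrp1 had r between -0.38 and 0.15 to each of the other 9 genes on the deposited values. This depended on scaling, since after centring each array on its median its r was 0.84 with Sfrp5 (adjusted p = 0.0241) and 0.56 with Dkk3. The medians subtracted ran from 6.744656 to 6.744928. This span is wider than that of Sfrp1 (9.7e-05), Sfrp5 (7.4e-05) or Dkk3 (0.000179) over the arrays. Centring thus gave these genes a shared offset wider than their own spread, and its part in r was not tested.

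The antagonists were set against 13 lists of cell type and tissue markers, each list summed as the mean standardised value of its genes, giving 130 combinations. After Benjamini-Hochberg adjustment over these, 2 passed, both with the tendon and ligament list (Scx, Tnmd, Mkx, Thbs4 and Fmod). Sost correlated with this score with r = 0.94 (permutation p = 1e-04, adjusted p = 0.0130) and rho = 0.93 (permutation p = 0.00045). Wif1 correlated with it with r = 0.88 (permutation p = 0.00027, adjusted p = 0.0175) and rho = 0.92 (permutation p = 0.00057). Without the arrays farthest from the median of the antagonist, r was 0.90 (exact permutation p = 0.00280) for Sost and 0.94 (exact permutation p = 0.000471) for Wif1. The lists were chosen with earlier results of these data known, and this one holds Mkx, the gene closest to Wif1 (r = 0.97). These p-values are thus no independent support, and the share of all genes with such an r is not given here.

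The tendon and ligament score ranged from -0.93 to 0.44 in vehicle mice and from -0.72 to 1.44 in maslinic acid mice, and 4 of its 5 genes had a higher mean with maslinic acid. Maslinic acid replicate 3 was the highest array for the score, as it was for Sost, and without it r was 0.89 for Sost and 0.87 for Wif1, neither passing (adjusted p = 0.0738 for both). After quantile normalization r was 0.80 for Sost and 0.35 for Wif1, and neither passed. Within groups r was 0.94 for Sost (adjusted p = 0.0361) and 0.87 for Wif1 (adjusted p = 0.257), and over all alternatives run the adjusted p ranged from 0.00573 to 0.162 for Sost and from 0.00287 to 0.704 for Wif1. Without vehicle replicates 3 and 5 r was 0.96 for Sost (adjusted p = 0.0322) and 0.84 for Wif1 (adjusted p = 0.157). Of single markers, Mkx, a transcription factor of tendon cells, had r = 0.97 with Wif1 and 0.88 with Sost, and Tnmd, the tendon membrane protein tenomodulin, had r = 0.79 with Wif1, 0.78 with Sost and 0.90 with Sfrp2. Scx, the tendon transcription factor scleraxis, had r = 0.48 with Sost and 0.14 with Wif1 and took only 7 different values. The r of Thbs4 and Fmod is not given here, so these values do not show whether the whole list or single genes carry the correlation. The part of tendon or ligament tissue in the variation of Wif1, Sost and Dkk2 was not tested.

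Osteocytes are the known source of Sost, and markers of bone were set against it and against Frzb and Sfrp4. The osteoblast and osteocyte score, from 6 of 8 listed genes, had r = 0.54 with Sost (permutation p = 0.104, adjusted p = 0.413) and rho = 0.42 (permutation p = 0.231). The osteocyte genes Dmp1, Phex and Mepe had r of 0.45, 0.39 and 0.52 with Sost. The same score had r = 0.80 with Frzb (permutation p = 0.00593, adjusted p = 0.141; rho = 0.72, permutation p = 0.0235) and r = -0.72 with Sfrp4 (permutation p = 0.0178, adjusted p = 0.201; rho = -0.76, permutation p = 0.0149), and none of these passed. Without the arrays farthest from the antagonist's median r was 0.65 for Frzb and -0.64 for Sfrp4. Within groups r was 0.63 for Frzb and -0.44 for Sfrp4, and without vehicle replicates 3 and 5 it was 0.74 and -0.41. Sp7, the osteoblast transcription factor osterix, had r = 0.93 with Frzb and -0.73 with Sfrp4, and Alpl, the alkaline phosphatase of mineralising cells, had r = 0.84 and -0.87. The other bone genes were looser: Dmp1, Phex and Ibsp had r of 0.47, 0.65 and 0.44 with Frzb and of -0.53, -0.45 and -0.72 with Sfrp4, and Mepe went the other way, with r = -0.17 and 0.45. The osteoblast and osteocyte score ranged from -1.23 to 0.16 in vehicle mice and from -0.03 to 0.94 in maslinic acid mice, with overlap and with 6 of 6 genes at a higher mean (median g 1.08). After quantile normalization 4 of 6 were higher (median g 0.27), against 5312 of 18128 genes (median g -0.28). The part of bone markers in the variation of Sost and in the differences of Frzb and Sfrp4 was not tested.

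On the deposited values inflammatory markers passed with no antagonist, and the neutrophil score had r = -0.16 with Sfrp1. After centring each array on its median, this r was 0.88 (adjusted p = 0.0305). Sfrp1 and Sfrp5 then also passed with the keratinocyte score (r = 0.94 and 0.96), against r = -0.12 and 0.45 on the deposited values. The medians subtracted spanned more than Sfrp1 or Sfrp5 did over the arrays. The part of this shared offset in the r after centring was not tested. The neutrophil score came from 5 of 7 listed genes. On the deposited values it ranged from -0.06 to 1.12 in vehicle mice and from -0.88 to -0.17 in maslinic acid mice, without overlap. All 5 genes had a lower mean with maslinic acid. After quantile normalization 2 of 5 were lower and 1 was higher, against 10508 and 5312 of 18128 genes. On the deposited values the r of the neutrophil score was 0.65 with Sfrp4 and -0.67 with Dkk3, each with an adjusted p of 0.241. Sfrp1 had r = 0.77 with the acute inflammation score (permutation p = 0.00929, adjusted p = 0.173; rho = 0.73, permutation p = 0.0201), and 0.54 without the arrays farthest from its median. Mmp3, the matrix metalloproteinase stromelysin, is 1 of the 8 genes of that list and had r = 0.86 with Sfrp1. The r of the others is not given here. With maslinic acid 4 of the 8 genes had a higher mean and 4 a lower mean. The adipocyte score, from 4 of 6 listed genes, had r = 0.85 with Dkk2 (permutation p = 0.00304, adjusted p = 0.132; rho = 0.81, permutation p = 0.00728), and 0.69 without the arrays farthest from the median of Dkk2. It also had r = 0.80 with Sost (permutation p = 0.00652, adjusted p = 0.141; rho = 0.84, permutation p = 0.00371) and r = 0.78 with Wif1 (permutation p = 0.00639, adjusted p = 0.141; rho = 0.72, permutation p = 0.0234). Without the arrays farthest from the antagonist's median these were 0.82 and 0.43. The adipocyte score ranged from -1.44 to 0.31 in vehicle mice and from -0.54 to 1.46 in maslinic acid mice, and its part in the variation of Dkk2, Sost and Wif1 was not tested.

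**Figure D4:**
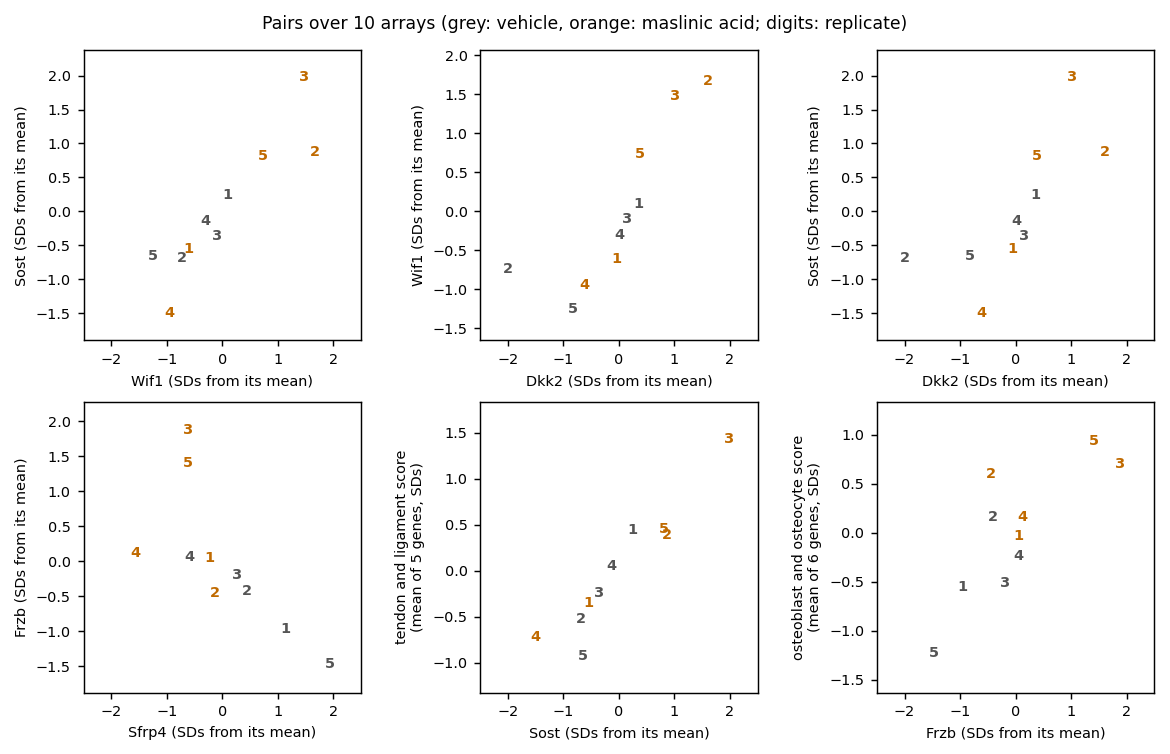
Each panel sets an antagonist against another antagonist or against a marker score over the 10 arrays, all axes in SDs; grey digits are vehicle replicates and orange digits maslinic acid replicates. Wif1, Sost and Dkk2 rise together, with maslinic acid replicates 2, 3 and 5 at the upper end; Sfrp4 and Frzb run in opposite directions (r = -0.71).

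Genes whose values lay closest to each antagonist over the 10 arrays were taken from 6743 genes with 10 different values, as a description only. For Wif1 they were Mkx (r = 0.97), 6330403K07Rik (0.95) and Dixdc1 (0.95), the last encoding an intracellular activator of Wnt signalling. For Sost they were 6330403K07Rik (0.96), Fxyd6 (0.94) and Nfib (0.93), so 6330403K07Rik stood near both. Dkk2 was closest to Abca8a (0.97), Itgbl1 (0.96) and Ecm2 (0.94), an extracellular matrix protein gene. Dkk3 was closest to Sirt2 (0.96), Tmem109 (0.95) and Aldh3a1 (0.94), and Dkk1 to AA414768 (0.89), Cenpb (0.88) and Tcf4 (0.87).

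Among the Wnt-binding antagonists, Frzb was closest to Copz2 (r = 0.94), Sp7 (0.93) and Ncam1 (0.91). Sfrp2 was closest to Capn2 (0.95), Itih5 (0.93) and Kera (0.90), the last encoding the small leucine-rich proteoglycan keratocan. Sfrp1 was closest to Gldc (0.94), Cyp7b1 (0.92) and Bst1 (0.90). Sfrp4 was closest to Gk2 (0.98), Bola2 (0.92) and Klk8 (0.92), and Sfrp5 to Arnt2 (0.94), Airn (0.84) and Eps8l2 (0.82). No antagonist was among the 3 genes closest to another.

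The rest of the pathway gave the setting for these values, in 71 of 73 listed genes. None passed adjustment in limma, and at an unadjusted p below 0.05 8 were higher and 0 lower, against 4.29% and 4.54% of all genes. After quantile normalization 1 was higher and 2 were lower at that level, against 150 and 905 of 18128 genes. Without vehicle replicates 3 and 5, 3 were higher and 0 lower, against 445 and 836 of 18128 genes. Of the Wnt ligands, 6 of 19 had a higher mean with maslinic acid (median g -0.41). Of the receptors and co-receptors on which the antagonists act, 16 of 17 had a higher mean and 5 an unadjusted p below 0.05 (median g 1.03). This direction moved with scaling, and so did that of all genes. After quantile normalization 8 of 17 receptors were higher (median g 0.00), against 5312 of 18128 genes (median g -0.28). After centring 8 of 17 were higher (median g -0.10), against 2698 of 18128 genes (median g -0.39). Without vehicle replicates 3 and 5, 15 of 17 were higher (median g 0.72), against 8470 of 18128 genes (median g -0.05). In that setting 2 receptors had an unadjusted p below 0.05 in limma. Other extracellular modulators had 7 of 13 higher (median g 0.20), cytoplasmic and nuclear effectors 8 of 11 (median g 0.25) and target genes 7 of 11 (median g 0.22). These counts moved with scaling too: after centring, 0 of 19 ligands, 3 of 13 modulators, 1 of 11 effectors and 3 of 11 target genes were higher, and after quantile normalization 8, 5, 3 and 4 were. Without vehicle replicates 3 and 5 they were 6, 7, 7 and 5, with a median g of -0.07 for the target genes.

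Fzd4, a Frizzled receptor also used by the non-Wnt ligand Norrin, ranged from 7.93459 to 7.93468 in vehicle mice and from 7.93466 to 7.93470 in maslinic acid mice, with g = 2.18 (95% interval 0.61 to 3.68) and an adjusted p of 0.455 in limma. Fzd9, a Frizzled of osteoblasts, had g = 1.99 (0.48 to 3.43) with an adjusted p of 0.467 in limma. Tcf7l2, a nuclear partner of beta-catenin, had g = 1.65 (0.24 to 2.99) with an adjusted p of 0.488 in limma. The lowest p among genes with a lower mean belonged to Fzd10 (g = -1.37), Wnt5a (g = -1.81) and Wnt2b (g = -0.99), which took only 4, 3 and 6 different values, so rounding of the deposited values limits them. Axin2, the usual readout of beta-catenin signalling, had g = 0.56 (95% interval -0.61 to 1.69) and an adjusted p of 0.768 in limma, with overlapping groups (6.638453 to 6.638512 and 6.638465 to 6.638501).

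**Figure D5:**
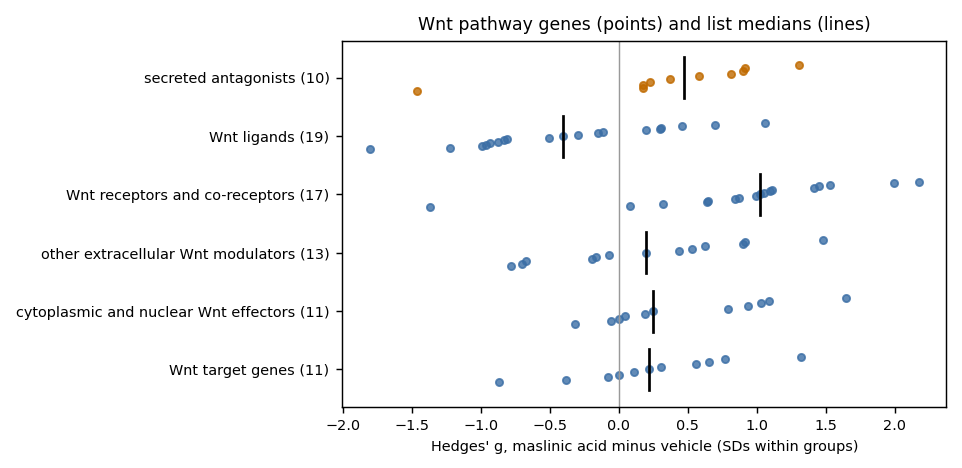
Hedges' g (horizontal axis, in SDs within groups) of each measured gene of 6 Wnt lists, with the number of genes in brackets; vertical lines are list medians. Antagonists have a median of 0.48, receptors and co-receptors 1.03 and ligands -0.41, in the deposited scaling.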

How the data were processed

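The deposited value of each probe set on the 10 synovium arrays is treated as a score: it has 6 decimals and no stated unit, and how arrays were normalized and probes summarised is not given in the sources used here. R 3.2.1 is named in the submitters' processing notes. They were tested without transformation. Of 39993 probe sets, 34202 name 1 gene in the platform annotation, 931 several and 4860 none.

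The antagonists, lists and motifs were chosen with earlier results of these data known. Groups came from the sample titles, and no batch is given. limma 3.58.1 (R 4.3.3; lmFit, eBayes, two-sided, Benjamini-Hochberg over all probe sets, threshold 0.05) compared the groups. Exact tests used all 252 assignments; correlations used 100000 permutations, or all permutations for fewer arrays or within groups. Pathway genes named are the 3 of lowest p in each direction plus Axin2; for each antagonist the 3 genes of highest r are named, and pairs below the threshold. The fits were tested on simulated data. Deviations of same-numbered mice of the groups had r from -0.39 to 0.35, which cannot decide whether the numbers pair them. The mice were treated as unpaired. The number of arrays limits precision. Alternatives covered scaling, filtering, variance model, array weights, probe set choice, a replicate block and left-out arrays. Kremen2 and Tcf7 of the pathway lists were not analysed here.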

Additional observations from a re-analysis of the deposited data

Results flagged for a closer look

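Within the maslinic acid group, Sfrp1 had 1 array far from the others: maslinic acid replicate 5 had a value of 6.928109, and its gap to the nearest array was 0.725 of the group's whole range, above Dixon's critical value of 0.71 for 5 samples. With 20 groups of 5 arrays examined and chance marking about 1 in 20, a single such array is the number chance gives on average.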

How the results depend on the processing

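The count of antagonists passing stayed at 0 of 10 and that of pathway genes at 0 under all 19 alternatives run, among them the replicate block, under which g was 1.06 for Frzb and -1.86 for Sfrp4. Under the block g is divided by the SD left after the block, and with array weights by a weighted SD. Their sizes are therefore not on the scale of the other g. The differences of Frzb, Sfrp4, Dkk2, Dkk3 and Sost kept their direction in every alternative that gave a value; Dkk2 lies below the median level and had none under the filter on low values. Quantile normalization reversed Dkk1 (g = -0.50), Sfrp1 (-1.13), Sfrp5 (-0.28) and Wif1 (-0.24), and centring on the array median reversed Sfrp1 (-0.39) and Sfrp5 (-0.29). Sfrp1 was also reversed with array weights (-0.19) and without vehicle replicates 3 and 5 (-0.16). With single arrays left out, g ranged from -0.14 to 1.25 for Dkk1, -0.22 to 0.77 for Sfrp1, -0.060 to 0.56 for Sfrp2 and -0.087 to 0.67 for Sfrp5. The 2 correlated pairs became 0 within groups, 4 by Spearman's rho, 0 after quantile normalization, 1 without vehicle replicates 3 and 5, 3 after centring, 3 with each gene averaged over its probe sets, and 0 to 3 with single arrays left out. The 2 combinations with marker scores became 1 within groups, 0 after quantile normalization, 7 after centring, 1 without vehicle replicates 3 and 5, and 0 to 3 with single arrays left out. Over all probe sets, 0 passed in limma (3617 at an unadjusted p below 0.05), against 8 (2009) after quantile normalization, 1 without maslinic acid replicate 1, and 737 at the unadjusted level after centring. The cause of these changes was not tested. The unknown scale, the rounding to 6 decimals and 5 arrays per group limit all values.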
